A study of Mus musculus with 11 samples.

Results

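Endocannabinoids are lipid messengers that neurons make on demand. In the cortex, 2-arachidonoylglycerol (2-AG) is formed at postsynaptic sites from diacylglycerol, travels back across the synapse and acts on the CB1 receptor of the presynaptic terminal, where it lowers transmitter release. Anandamide, the other main endocannabinoid, is released from N-acylphosphatidylethanolamine lipids. Separate enzymes break down each of these messengers. The 8 genes described here, of 53465 in the count files, were chosen by symbol for their roles in this system. They encode the receptor (Cnr1), a protein that binds the receptor's tail (Cnrip1), both diacylglycerol lipases that make 2-AG (Dagla, Daglb), a pair of lipases that hydrolyze it (Mgll, Abhd6), a phospholipase that forms anandamide (Napepld) and the amidase that degrades anandamide (Faah). The rule uses no measured value, although the genes were picked with earlier results of these data known, and all 8 genes passed the low-count filter.

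RNA was sequenced from mPFC CRF1+ cells, sorted by GFP fluorescence from the medial prefrontal cortex of adult male CRF1:GFP reporter mice, with 1 mouse per library and 160 pg of RNA per library. The 5 withdrawn mice had received ethanol vapor intermittently for 5 to 6 weeks, with injections of ethanol and the alcohol dehydrogenase inhibitor pyrazole, and were 5 to 8 days into abstinence. The 6 naïve mice breathed air and also received pyrazole, so that both groups carried the reporter and the inhibitor. The groups follow each sample's treatment label. The source name of 3 withdrawn mice reads control, and the series' own summary of its design counts 6 ethanol and 5 control mice, the reverse of these labels. Results without those 3 mice were also computed. The question asked of these genes was whether their RNA differed between withdrawn and naïve mice.

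Each naïve library held between 9970161 and 17855514 counts on genes, and each withdrawn library between 7351567 and 22244869. Crhr1, the gene for the CRF1 receptor by which the cells are named, was detected in every library, from 42.2 to 136 CPM (edgeR's count rate per library, scaled with TMM factors) in withdrawn and from 69.1 to 119 CPM in naïve mice. The glutamatergic marker Slc17a7 was between 738 and 1928 CPM in all 11 libraries. GABAergic markers were also present, and the summed level of 8 such genes ran from 90.1 to 1110.2 CPM in naïve and from 34.3 to 727 CPM in withdrawn mice. Only 2 of them had lower means in withdrawn than in naïve mice, Sst (6.53 against 247 CPM) and Npy (30.6 against 85.2 CPM). The means of the other 6 were higher in withdrawn mice, among them Gad1 (155 against 87.7 CPM) and Vip (101 against 49.6 CPM). The summed level of 5 astrocyte markers ran from 9.41 to 153 CPM in naïve and from 12.6 to 355 CPM in withdrawn mice. The higher withdrawn sums were almost all Gja1, with a mean of 15.3 CPM in naïve and 187 CPM in withdrawn mice, while the means of Aqp4, Aldh1l1, Slc1a3 and Gfap were lower in withdrawn mice. For 5 microglial markers the range was 0 to 6.47 CPM in naïve and 6.87 to 17.5 CPM in withdrawn mice, mainly through Tmem119 (means of 0.543 and 7.39 CPM), while the means of P2ry12 and Csf1r were lower in withdrawn mice. Fibroblast markers, 5 genes, had sums from 0.068 to 58.9 CPM in naïve and from 10.9 to 1283 CPM in withdrawn mice. The means of Col1a1, Col1a2, Dcn and Ogn were higher in withdrawn mice, and that of Lum was lower (0.910 against 1.36 CPM). Sums of 4 endothelial markers ran from 0.203 to 501 CPM in naïve and from 18.3 to 407 CPM in withdrawn mice. Mural sums (3 genes) were 0.135 to 79.3 CPM in naïve and 1.49 to 75.2 CPM in withdrawn mice. Oligodendrocyte sums (5 genes) were 108 to 246 CPM in naïve and 86.8 to 229 CPM in withdrawn mice. Means of Pecam1, Acta2, Mag and all 3 oligodendrocyte precursor markers were higher in withdrawn mice. Those of the other endothelial, mural and oligodendrocyte markers were lower. The part of these other cells in the values below was not tested. Naïve mouse 5 stood apart, with the fewest genes detected (15585) and the lowest share of reads outside annotated exons (5.77%).

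None of the 8 genes changed by the thresholds applied, which asked for a log2 fold change beyond 0.6 together with an adjusted p not above 0.05. This held in edgeR's quasi-likelihood test, where 1 of 17093 tested genes (0.00585%) was called, and in DESeq2's Wald test, where 362 genes were called (1.66% of those with an adjusted p). No gene of the 8 had an unadjusted p under 0.05 in edgeR, against 7.22% of all tested genes. The values of naïve and withdrawn mice overlapped for each of the 8, whereas 0.948% of tested genes had groups without overlap, with withdrawn mice higher for 0.69% and lower for 0.257%. Each of the 8 estimates was at most 0.30 in size on the log2 scale, as were those of 47.9% of tested genes. In sorted bulk samples, fewer cells of a type and less RNA per cell cannot be told apart.

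**Figure D1:**
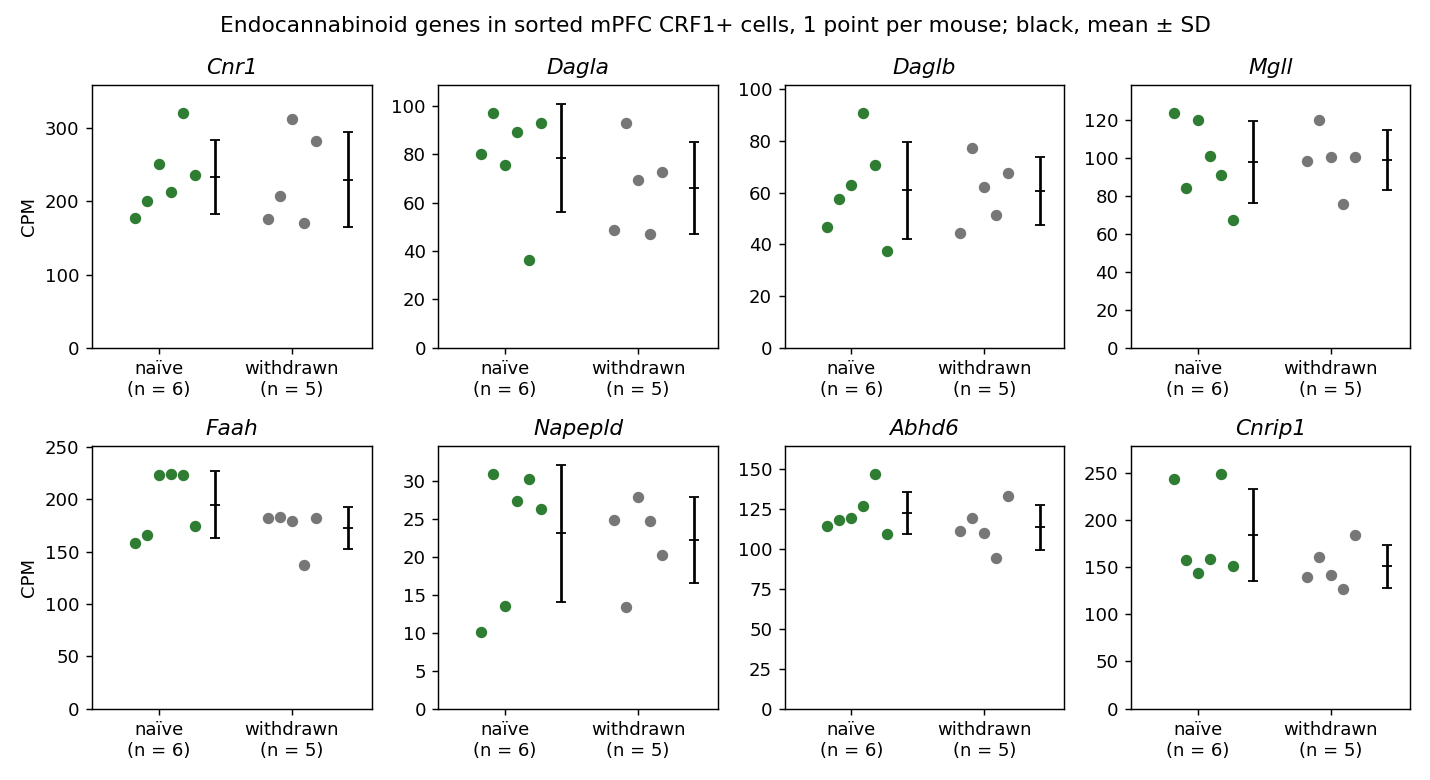
CPM of the 8 genes (y axis, from 0) in each of 6 naïve (green) and 5 withdrawn (grey) mice, ordered within a group by replicate number, with the mean and SD of each group in black. Naïve and withdrawn mice overlap in every panel, and the lowest Dagla value belongs to naïve mouse 5.

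Cnr1 encodes CB1, the main cannabinoid receptor of the brain. The gene (ENSMUSG00000044288) spans positions 33924593 to 33948831 on the plus strand of chromosome 4 (GRCm38), and no other gene shares its exons. RefSeq lists 3 transcription start sites for it, whose RNAs the gene count adds together. The stretches around them, from 40 bases before to 20 bases after each start in GRCm38.p6, are shown because the count cannot tell these starts apart, with CG dinucleotides in capitals.
Cnr1 start 1, chr4:33924224-33924283, plus strand: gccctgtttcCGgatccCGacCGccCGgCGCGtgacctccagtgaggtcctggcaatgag
Cnr1 start 2, chr4:33924604-33924663, plus strand: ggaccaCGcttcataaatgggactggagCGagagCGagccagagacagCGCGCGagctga
Cnr1 start 3, chr4:33926340-33926399, plus strand: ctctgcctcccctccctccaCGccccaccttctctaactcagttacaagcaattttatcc
The first start lies upstream of the gene's first annotated base in GENCODE M21, the annotation used here for coordinates. In windows of 300 bases, from 250 before to 50 after each start, the motif CG, which reads the same on both strands, occurred 40, 33 and 5 times. Of 32851 such windows listed for mouse genes, 94.6% held at least 1 CG, with a median of 7. The first window held more CGs than 96.1% of them, the second more than 91.4% and the third more than 38.0%.

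Cnr1 was at 177 CPM in the lowest naïve mouse, 224 CPM at the median and 320.1 CPM in the highest. The 5 withdrawn mice were at 176, 207, 313, 171 and 282 CPM, in the order of their replicate numbers. Withdrawn mice 3 and 5 therefore lay in the upper part of the naïve range, and withdrawn mice 1 and 4 lay just below the lowest naïve mouse. The means were 233 ± 50.1 CPM (n = 6, SD) and 229.5 ± 64.3 CPM (n = 5, SD), and the difference was smaller than either SD. The two-sided exact permutation test of the difference in mean log2 CPM gave p = 0.846. The log2 fold change was -0.02 (SE, its standard error, 0.20, adjusted p = 0.992 in edgeR's quasi-likelihood test), and its 95% interval corresponded to between 0.731-fold and 1.33-fold of the naïve level. Without naïve mouse 5 the estimate was 0.10, and without withdrawn mouse 3 it was -0.18. The 3 mice with conflicting labels include both withdrawn mice with high Cnr1, and without them the estimate was -0.34 (SE 0.24, adjusted p = 0.830, edgeR), from 0.545-fold to 1.15-fold.

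In cortex, Cnr1 is known for its high expression in a class of GABAergic interneurons and its lower expression in pyramidal neurons. The sum of the 8 GABAergic markers was not split by class. Sst had the highest mean of them in naïve mice (247 CPM) and Gad1 in withdrawn mice (155 CPM). The sum therefore does not measure the class with high Cnr1. In these libraries, mice with low sums of the 8 markers had both high and low Cnr1 levels. Withdrawn mouse 3, with the lowest sum (34.3 CPM), had 313 CPM of Cnr1. Naïve mouse 5, with the next lowest sum (90.1 CPM), had the most Cnr1. Naïve mouse 4, with a sum of 98.0 CPM, had 213 CPM of Cnr1, and withdrawn mouse 4, with a sum of 249 CPM, had the least Cnr1 of all 11 mice (171 CPM). At the other end, naïve mouse 1 had a marker sum of 1110.2 CPM and a Cnr1 level of 177 CPM. The next highest sums, 564 to 843 CPM, belonged to naïve mice 2 and 6 and withdrawn mice 1 and 2. Their Cnr1 levels ran from 176 to 236 CPM. Naïve mouse 3 and withdrawn mouse 5 had sums of 340 and 304 CPM and Cnr1 levels of 251 and 282 CPM. A relation between the sum and Cnr1 was not tested. Among all 11 mice Cnr1 varied 1.87-fold from lowest to highest.

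**Figure D2:**
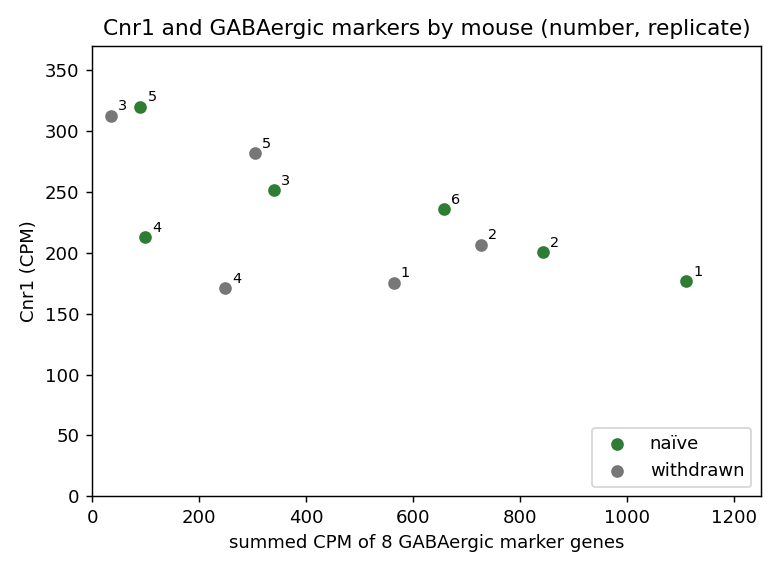
Cnr1 in CPM (y axis, from 0) against the summed CPM of 8 GABAergic marker genes (x axis, from 0), 1 point per mouse, naïve green and withdrawn grey, numbered by replicate. The marker sum spans 34.3 to 1110.2 CPM, and in each group the mouse with the lowest sum has the highest Cnr1 level, while withdrawn mouse 4, with the second lowest withdrawn sum, has the lowest. The sum is not split by interneuron class.

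The genes whose log2 CPM over the 11 mice was most like that of Cnr1, of all other genes tested, were Csrnp1 (Pearson r = 0.89, Spearman rho = 0.90), Atpaf2 (r = 0.89, rho = 0.79) and 2900097C17Rik (r = 0.89, rho = 0.89). These are the 3 highest coefficients of a search over all tested genes and are given as a description. Csrnp1 was much lower than Cnr1 in counts, from 4.795 to 26.3 CPM. The long RNA 2900097C17Rik was between 224 and 419 CPM.

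Cnrip1 encodes the CB1-interacting protein, which binds the receptor's intracellular tail. It had the lowest unadjusted p of the 8 genes. The gene (ENSMUSG00000044629) lies on chromosome 11 from 17051586 to 17079371, plus strand, and shares 199 of its 4003 exonic bases with Plek on the opposite strand. Naïve mice ranged from 144 to 249 CPM with a median of 158 CPM. The withdrawn mice had 140.1, 161, 142, 127 and 185 CPM. Naïve mice 1 and 5 (244 and 249 CPM) were above all other mice, and 3 of the 5 withdrawn mice were below the lowest naïve mouse. Mean levels were 184 ± 48.7 CPM (n = 6, SD) in the naïve group and 151 ± 22.4 CPM (n = 5, SD) in the withdrawn group, and the estimate on the log2 scale was -0.29 (SE 0.19, unadjusted p = 0.149, adjusted p = 0.820 in edgeR's quasi-likelihood test). The two-sided exact permutation test gave p = 0.210. The 95% interval, from 0.620-fold to 1.08-fold, included no change, and without naïve mouse 5 the estimate was -0.18. The ratio of Cnr1 to Cnrip1, each per kilobase of exon, was 0.821 ± 0.215 (n = 6, SD) in naïve and 0.947 ± 0.246 (n = 5, SD) in withdrawn mice. It was lowest in naïve mouse 1, at 0.450, and highest in withdrawn mouse 3, at 1.37.

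Dagla and Daglb encode the enzymes that cut diacylglycerol to 2-AG, and DAGLα is the form known to supply 2-AG for retrograde signaling in the adult brain. Dagla (ENSMUSG00000035735) lies on chromosome 19 from 10245265 to 10304877, minus strand, and shares no exonic base with another gene. Naïve mice had 80.0, 97.1, 75.7, 89.2, 36.2 and 92.9 CPM, so that naïve mouse 5 was below every other mouse of either group. Withdrawn mice had 48.8, 92.9, 69.3, 47.1 and 72.6 CPM. Withdrawn mouse 2 was therefore level with the upper naïve mice, and the other 4 withdrawn mice were below 5 of the 6 naïve mice. The means were 78.5 ± 22.2 CPM (n = 6, SD) and 66.1 ± 18.9 CPM (n = 5, SD). The log2 fold change of -0.25 had a SE of 0.26 (adjusted p = 0.905, edgeR's quasi-likelihood test) and an interval from 0.573-fold to 1.24-fold, and the exact permutation p was 0.446. Leaving out naïve mouse 5 gave -0.39 (unadjusted p = 0.0765, edgeR), and leaving out withdrawn mouse 2 gave -0.40, both with adjusted p values above the threshold.

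Daglb (ENSMUSG00000039206, chromosome 5 from 143464584 to 143505942, plus strand) shares 2309 of its 9567 exonic bases with Rac1 on the opposite strand. Whether the counting used strand is not given in the sources used here, and reads on these bases may be missing from its count. Levels ran from 37.2 to 90.7 CPM in naïve mice and from 44.4 to 77.3 CPM in withdrawn mice, and the withdrawn range lay within the naïve range. The log2 fold change was -0.0092 (SE 0.24, adjusted p = 0.996, edgeR) and turned positive, to 0.021, when DESeq2 size factors replaced TMM. Per kilobase of exon, Dagla made up 67.2% ± 12.2 (n = 6, SD) of the summed level of both lipases in naïve mice and 64.2% ± 2.26 (n = 5, SD) in withdrawn mice. In naïve mice this share ran from 46.1%, in mouse 5, to 80.6%, in mouse 6, and in withdrawn mice it stayed between 60.5% and 66.7%.

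Mgll encodes monoacylglycerol lipase, the enzyme known to carry out most 2-AG hydrolysis in the brain, mainly in presynaptic terminals and astrocytes. It lies on chromosome 6 from 88724412 to 88828360, plus strand (ENSMUSG00000033174), and shares 167 exonic bases with Gm26588 on the opposite strand. Naïve mice had between 67.2 and 124 CPM (median 96.1 CPM), and withdrawn mice had 98.8, 120.4, 100.9, 75.9 and 100.5 CPM. The withdrawn mice fell inside the naïve range. Means of 98.0 ± 21.6 CPM (n = 6, SD) and 99.3 ± 15.8 CPM (n = 5, SD) gave a log2 fold change of 0.020 (SE 0.19, adjusted p = 0.991, edgeR) with an interval from 0.770-fold to 1.34-fold.

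Abhd6 encodes a serine hydrolase that degrades 2-AG at postsynaptic membranes. The gene (ENSMUSG00000025277, chromosome 14 from 8002902 to 8056763, plus strand) had the smallest spread of the 8, with a coefficient of variation of 11.6% over the 11 mice. Naïve mice ranged from 109.6 to 147 CPM around a median of 119 CPM, and withdrawn mice from 94.4 to 133 CPM around 111 CPM. A single withdrawn mouse, number 4, was below all naïve mice. The log2 fold change was -0.11 (SE 0.14, adjusted p = 0.928, edgeR), the narrowest estimate of the 8, with an interval from 0.752-fold to 1.14-fold. Mgll per kilobase was 0.375 ± 0.092 (n = 6, SD) of Abhd6 per kilobase in naïve and 0.407 ± 0.046 (n = 5, SD) in withdrawn mice.

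Napepld encodes the phospholipase D that forms anandamide and related N-acylethanolamines, and Faah the fatty acid amide hydrolase that breaks them down. Napepld (ENSMUSG00000044968, chromosome 5 from 21662901 to 21701396, minus strand) had the fewest counts, from 94 to 597 per mouse. Naïve mice had 10.1, 31.0, 13.5, 27.4, 30.3 and 26.4 CPM, and withdrawn mice had 24.9, 13.4, 27.9, 24.7 and 20.2 CPM. Naïve mice 1 and 3 and withdrawn mouse 2 were well below the other 8 mice. Its log2 fold change of -0.056 had the largest SE of the 8, 0.35 (adjusted p = 0.986, edgeR), with an interval from 0.574-fold to 1.61-fold.

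Faah (ENSMUSG00000034171) lies on chromosome 4 from 115967145 to 116017926, minus strand. Naïve mice were in a lower trio, at 158, 166 and 174 CPM, and an upper trio, between 223 and 224 CPM. The withdrawn mice had 182, 183, 179, 137 and 182 CPM, so that 4 of them lay between the naïve trios and withdrawn mouse 4 was below every other mouse. Means were 195 ± 31.9 CPM (n = 6, SD) and 173 ± 19.9 CPM (n = 5, SD). The log2 fold change was -0.17 (SE 0.15, adjusted p = 0.879 in edgeR's quasi-likelihood test), the interval ran from 0.709-fold to 1.11-fold, and the exact permutation p was 0.227. Without withdrawn mouse 4, the library with the fewest counts on genes (7351567) and the highest share of reads outside exons (48.1%), the estimate was -0.10. Per kilobase, Faah was 5.02 ± 2.45 (n = 6, SD) times Napepld in naïve and 4.23 ± 1.62 (n = 5, SD) times in withdrawn mice.

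**Figure D3:**
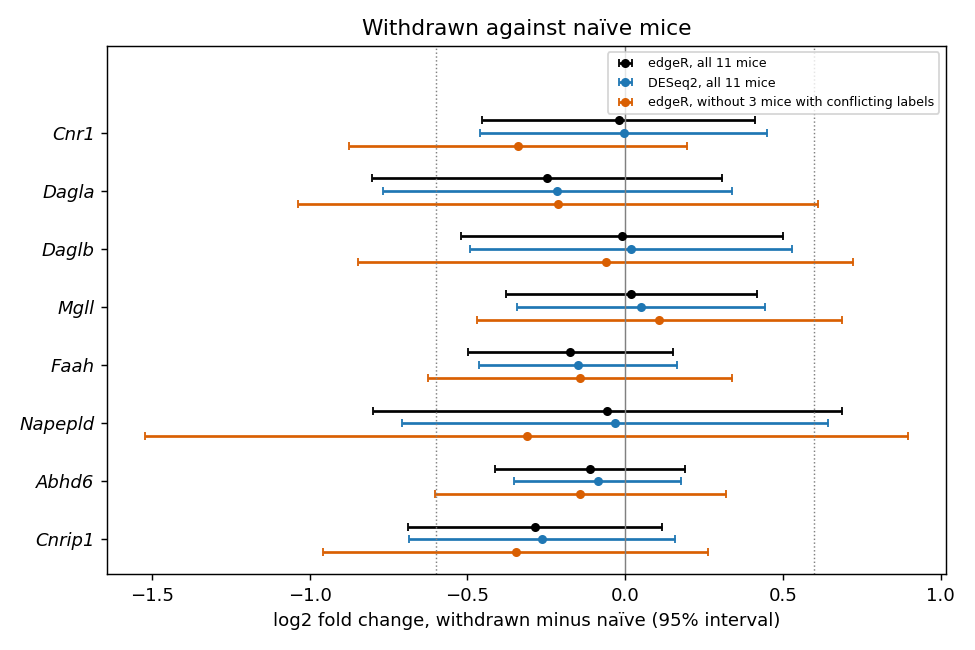
Log2 fold change of withdrawn against naïve mice (x axis) with its 95% interval for each of the 8 genes, from edgeR (black) and DESeq2 (blue) on all 11 mice and from edgeR without the 3 mice with conflicting labels (orange); dotted lines mark 0.6 in either direction. Every interval crosses 0, and with all 11 mice the intervals of Dagla, Napepld and Cnrip1 also reach past -0.6. Without the 3 mice those of all genes but Mgll do.

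The estimates of 7 of the 8 genes were below 0, as were those of 48.2% of all tested genes, and the number below 0 ranged from 4 to 8 over the alternative settings. With DESeq2 size factors it was 6, and without naïve mouse 5 it was 4. The median log2 fold change was -0.083 for the 8 genes and 0.021 for all tested genes. The 95% intervals of Cnr1, Daglb, Mgll, Faah and Abhd6 lay within 0.6 on the log2 scale in both directions, and a change past that threshold was outside them. Without the 3 mice with conflicting labels, the interval of each of the 8 genes reached past 0.6 in at least one direction. With all 11 mice, the intervals of Dagla, Napepld and Cnrip1 did reach past -0.6, so that at this number of mice a fall beyond that size could not be told from no change for these 3 genes, nor a rise of that size for Napepld.

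Levels of different genes were compared per kilobase of annotated exon. The order of the means over 11 mice was Abhd6 (50.1 ± 5.81 CPM per kb, SD, n = 11), Cnrip1 (42.2 ± 10.3), Cnr1 (35.9 ± 8.37), Faah (23.6 ± 3.61), Mgll (19.4 ± 3.60), Dagla (12.7 ± 3.62), Daglb (6.35 ± 1.64) and Napepld (5.74 ± 1.85). Cnr1 was above Faah in all 11 mice and Dagla above Daglb in 10. The neighbors Abhd6 and Cnrip1, Cnrip1 and Cnr1, Faah and Mgll, and Mgll and Dagla each kept their order in 9 of 11 mice. Daglb was above Napepld in only 5 mice, and these neighbors did not differ beyond their spread. Among all tested genes, Abhd6 stood at the 93.5th percentile of level per kilobase, Cnr1 at the 90.6th and Napepld at the 58.0th.

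The order depended on the length used. With the longest principal transcript of each gene in place of all its exons, Cnrip1 came first at 102 CPM per kb and Faah, at 48.3, moved above Cnr1, at 39.8. On that length Daglb (13.1 CPM per kb) and Dagla (12.9) were level, and their ratio therefore rests on the exons counted. The ratios of Cnr1 to Cnrip1, Mgll to Abhd6 and Faah to Napepld given above also used exon length and would differ on the other. When the bases shared with opposite-strand genes were left out of the exon length, Daglb was at 8.37 CPM per kb.

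**Figure D4:**
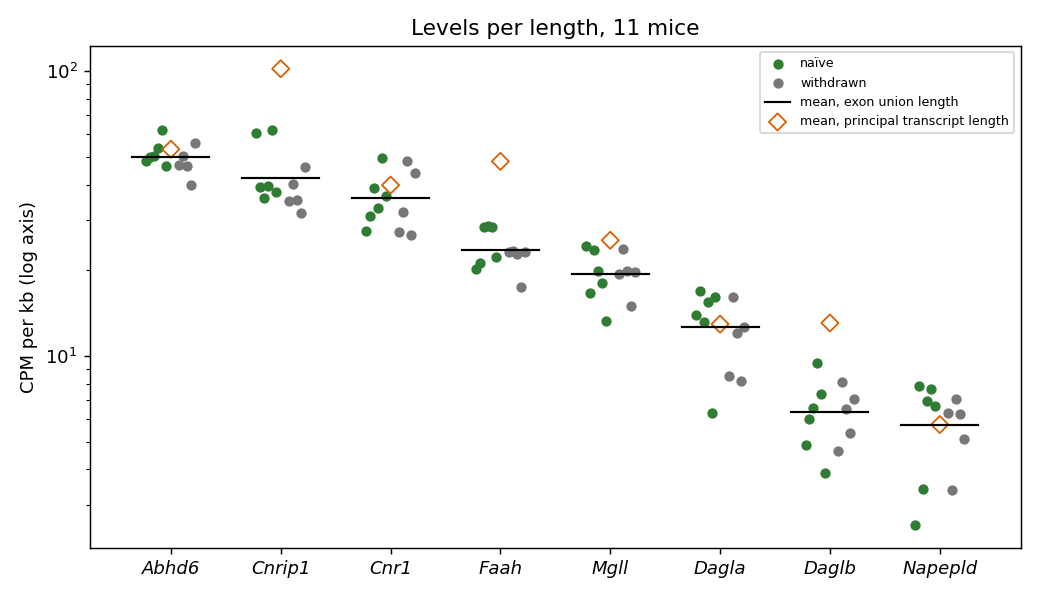
CPM per kb of annotated exon (y axis, log scale) for the 8 genes in order of their mean over 11 mice (black line), with naïve mice in green, withdrawn mice in grey and, as open diamonds, the mean with the principal transcript's length. Abhd6 at 50.1 and Napepld at 5.74 mark the ends by exon length, and the diamond of Cnrip1 lies at 102.

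Across the 11 mice, the log2 CPM of the 8 genes gave 28 pairwise correlations, of which 21 were positive, with a median Pearson r of 0.19. None had an adjusted p of at most 0.05 in two-sided permutation tests with 100000 resamples, and 4 had an unadjusted p under 0.05. The highest was that of both hydrolases Faah and Abhd6 (r = 0.76, p = 0.00801, adjusted p = 0.154, permutation test; rho = 0.71, adjusted p = 0.142), which was 0.58 without the mice farthest from the median of Faah. Within the 6 naïve mice it was 0.68 (exact permutation p = 0.122). Abhd6 and Cnrip1 (r = 0.68 with permutation p = 0.0200 and adjusted p = 0.187, rho = 0.73) fell to r = 0.26 without the mice farthest from the median of Abhd6. Leaving these mice out also narrows the range of Abhd6, so whether the relation rested on them cannot be told. Within the 6 naïve mice r was 0.50 (exact permutation p = 0.336). For Cnr1 and Abhd6, r was 0.60 (permutation p = 0.0460, adjusted p = 0.260; rho = 0.55).

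Mgll and Napepld ran in opposite directions (r = -0.73, permutation p = 0.0110, adjusted p = 0.154; rho = -0.61, adjusted p = 0.298). The 3 mice with the highest Mgll, naïve mice 1 and 3 and withdrawn mouse 2, at 124, 120.0 and 120.4 CPM, were the 3 with the lowest Napepld, at 10.1, 13.5 and 13.4 CPM. Without the mice farthest from the median of Mgll, r was -0.93, and within the 6 naïve mice it was -0.77 (exact permutation p = 0.0917). The relation did not pass the correction for 28 pairs. The same 3 libraries held 9970161, 10709248 and 8696939 counts on genes, among the 4 lowest of the 11, and the part of depth in this pattern was not tested. Withdrawn mouse 4, the shallowest library, had 24.7 CPM of Napepld.

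**Figure D5:**
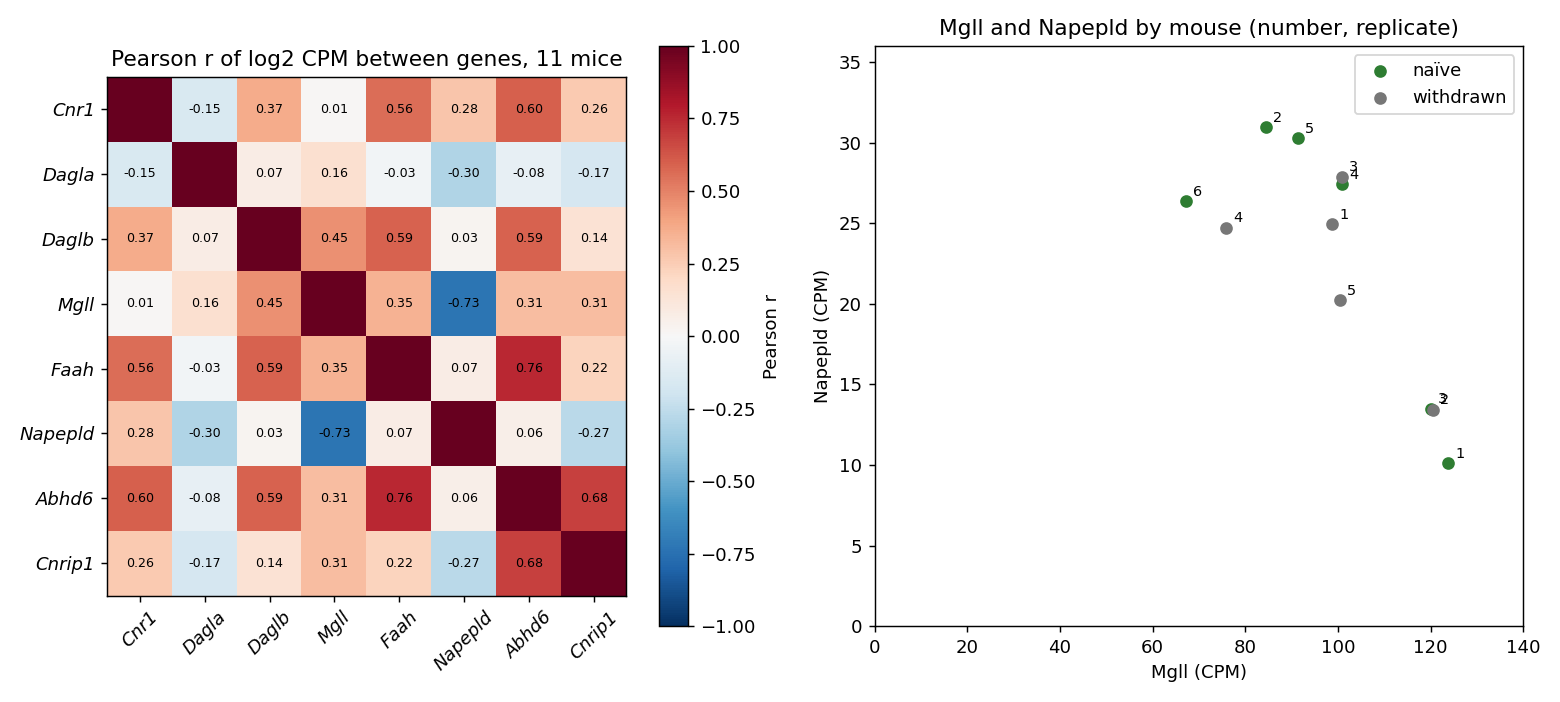
Left, Pearson r of log2 CPM between the 8 genes over 11 mice (color scale from -1 to 1); right, Napepld against Mgll in CPM (both axes from 0), 1 point per mouse, naïve green and withdrawn grey, numbered by replicate. Faah and Abhd6 have the highest coefficient, 0.76, Mgll and Napepld the lowest, -0.73, and naïve mice 1 and 3 and withdrawn mouse 2 sit apart at the lower right.

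A further 49 genes of the pathway were listed in 4 groups, of which 37 passed the low-count filter. None was called in edgeR, 1 had an unadjusted p under 0.05 with a higher and 2 with a lower level in withdrawn mice, and over all tested genes these shares were 5% and 2.22%. The median log2 fold change of the 37 was -0.096. Of the other lipid enzymes, 10 of 15 were tested, none with an unadjusted p under 0.05. The most abundant per kilobase were Gde1, a glycerophosphodiesterase of an alternative anandamide route (289 CPM per kb), Abhd12, another 2-AG hydrolase (135 CPM per kb), and Gdpd1 (26.2 CPM per kb). Gde1 was at 543 ± 115.5 CPM (n = 6, SD) in naïve and 425 ± 63.4 CPM (n = 5, SD) in withdrawn mice (log2 fold change -0.35, SE 0.17, adjusted p = 0.707, edgeR).

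Of 12 other receptors and carriers, 5 were tested and none had an unadjusted p under 0.05. Cnr2, which encodes the CB2 receptor of immune cells, had 1 count in a single withdrawn mouse and 0 in the other 10 libraries. Over all libraries, 3 counts correspond to between 0.135 and 0.408 CPM, here without TMM scaling. Trpv1, Gpr55, Gpr18, Gpr119 and Ppara, other proposed targets of these lipids, were also below the filter. Gprasp1, which sorts internalized receptors (76.0 CPM per kb), and the fatty acid binding proteins Fabp3 (115 CPM per kb) and Fabp5 (26.7 CPM per kb) were the most abundant of this group.

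Receptors coupled to Gq and phospholipase C supply the diacylglycerol that DAGL enzymes use. All 10 listed genes of this step were tested. Gna11 (46.1 CPM per kb), the muscarinic receptor gene Chrm1 (42.3) and Gnaq (35.5) were the most abundant. Gnaq, the gene for the Gq alpha subunit, was at 245 ± 37.9 CPM (n = 6, SD) in naïve and 189 ± 26.1 CPM (n = 5, SD) in withdrawn mice. Its log2 fold change was -0.37 (SE 0.15, unadjusted p = 0.0248, adjusted p = 0.567 in edgeR). Plcb1, the most abundant per kilobase of the listed phospholipase C genes, Plcb1 to Plcb4, was at 29.2 CPM per kb with a log2 fold change of -0.049.

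Downstream, CB1 acts through Gi and Go proteins on calcium channels, potassium channels and adenylyl cyclase. All 12 listed genes were tested, and Gnai1 (104 CPM per kb), Prkaca (86.7) and Gnao1 (29.0) were the most abundant. Kcnj3, which encodes the GIRK1 potassium channel subunit, was at 70.2 ± 14.4 CPM (n = 6, SD) in naïve and 48.3 ± 8.12 CPM (n = 5, SD) in withdrawn mice (log2 fold change -0.54, SE 0.20, unadjusted p = 0.0164, adjusted p = 0.491, edgeR). Gnai3, another inhibitory G protein subunit, was at 41.1 ± 11.0 CPM (n = 6, SD) and 59.3 ± 9.58 CPM (n = 5, SD), with a log2 fold change of 0.53 (SE 0.22, unadjusted p = 0.0302, adjusted p = 0.614, edgeR). Neither passed the adjustment over all tested genes.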

How the data were processed

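The deposited files hold raw counts per Ensembl gene, 1 file per mouse. To make them, the authors used cutadapt for trimming, STAR for alignment to GRCm38 and HTSeq for counting. Genes took 42.0% to 81.1% of the tallied reads of a library, and the tallies that name no gene stayed out of library sizes and tests. The strand setting is not given in the sources used here. Symbols and coordinates came from GENCODE M21, and start-site sequences from RefSeq on GRCm38.p6, where 7 of the 8 genes matched. The members and gene lists were chosen with earlier results of these data known.

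Groups were compared with the quasi-likelihood test of edgeR 4.0.16 (R 4.3.3), after filterByExpr by group (minimum count 10, minimum total 15), library sizes over the genes kept and TMM. P values were adjusted by Benjamini-Hochberg over 17093 genes. The standard error is the log2 fold change divided by the square root of F, and intervals (95%) use the test's degrees of freedom. Log2 CPM used a prior count of 2. DESeq2 1.42.0 was an alternative, as were other filters, DESeq2 size factors, a replicate block and each mouse left out. Permutation tests and figures used Python 3.11.15. The edgeR script was tested on simulated data, with its pass check on counts whose spread was set alike for every gene. That check does not show how small a change could be detected in these data. Named further genes were those called, those with an unadjusted p under 0.05, and the 3 of each list with the highest level per kb. Plcb1 and the untested receptors were named after their values were seen.

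Depth was 7351567 to 22244869 counts per mouse, and 3 counts correspond to 0.135 to 0.408 CPM, a floor that covers counting error alone, because reads copied by PCR do not stand for separate molecules.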

Additional observations from a re-analysis of the deposited data

Results flagged for a closer look

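In 2 of 16 sets of values, 1 for each gene in each group, the lowest mouse lay far from the rest; about 1 in 20, or 0.8, would by chance. Dagla in naïve mouse 5 was low, at 5.18 on the log2 CPM scale. The same mouse had the fewest genes detected (15585) and the lowest share of reads outside exons (5.77%). Faah in withdrawn mouse 4 was low, at 7.10 on the log2 CPM scale, and this library had the fewest counts on genes (7351567) and the highest share of reads outside exons (48.1%). The part of these library measures in either value was not tested.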

How the results depend on the processing

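None of the 8 genes was called under any of the 18 alternative settings, in which the smallest unadjusted p was 0.0765 and the smallest adjusted p 0.603, both in edgeR. Many of these settings called 0 or 1 of all tested genes. The lack of a call for the 8 genes says little there. Of 144 estimates for single genes, 119 kept their direction and 25 reversed it, all of them for Cnr1, Daglb, Mgll and Napepld, whose estimates were nearest to 0. Cnr1 was 0.018 with at least 10 counts in every mouse. Daglb was 0.021 with DESeq2 size factors, 0.019 with DESeq2, 0.039 with at least 10 counts in every mouse and 0.045 with DESeq2 without the 3 mice with conflicting labels, a setting chosen after seeing the data. With each mouse left out in turn, log2 fold changes ran from -0.18 to 0.10 for Cnr1, -0.40 to -0.14 for Dagla, -0.12 to 0.14 for Daglb, -0.067 to 0.11 for Mgll, -0.23 to -0.10 for Faah, -0.21 to 0.062 for Napepld, -0.18 to -0.046 for Abhd6 and -0.38 to -0.18 for Cnrip1. The cause of these reversals was not tested.

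Same-numbered mice are different animals and did not deviate together (correlations from -0.20 to 0.18, and 1 of 5 withdrawn mice was most like the naïve mouse of its number). With a replicate block on 5 pairs, Mgll was -0.068 and Napepld 0.079, and 0 genes were called.

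The number of genes called among all tested, 1 in edgeR, was 362 with DESeq2, 168 with DESeq2 without the 3 mice, 137 without the filter, 30 with at least 10 counts in every mouse, 0 without the 3 mice and 0 to 193 with each mouse left out, the highest without withdrawn mouse 2. With a mouse left out, more than 1 gene was called only without naïve mouse 2 (6 genes) or without withdrawn mouse 2. No correlation between the 8 genes passed with either scaling. The lengths used for levels per kb were chosen after seeing the data.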

Other observations

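Naaa, which encodes a lysosomal amidase of N-acylethanolamines, had the largest estimate of the listed lipid enzymes and was named after its values were seen. Naïve mice had 10.4, 10.1, 0.281, 9.14, 0 and 14.2 CPM, and withdrawn mouse 2 had 0.784 CPM. The other 4 withdrawn mice had between 24.0 and 54.0 CPM and were above every naïve mouse. The log2 fold change of 2.09 (standard error 1.05) did not pass edgeR's quasi-likelihood test (unadjusted p = 0.0681, adjusted p = 0.731). The summed level of 5 fibroblast markers in the withdrawn mice was 1283, 10.9, 619.5, 873 and 224 CPM, also lowest in mouse 2, and its part in the Naaa values was not tested.

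Hrasls5 (also Plaat5), an acyltransferase that can form anandamide precursors, had 52 counts in withdrawn mouse 2 and at most 1 count in each of the other 10 mice.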
